A study of Arabidopsis thaliana with 2 samples.

Results

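Oxidoreductase genes outside lipid metabolism were examined in mature *Arabidopsis thaliana* stems, 50 of the 733 genes in the deposited table. A gene was a member if its molecular function terms contained oxidoreductase activity and its biological process terms contained none of lipid metabolic process, response to abscisic acid, response to water deprivation and S-glycoside metabolic process. *TT10*, a laccase-like oxidase gene, was also left out. The term alone held 68 genes, of which 18 were left out and 50 kept. The label rests on the gene ontology terms: 39 of the 50 members also carried the process term oxidation-reduction process, which 57 genes of the table carried. The members were grouped by the enzyme named in the gene description, into 10 2-oxoglutarate dioxygenases, 9 thiol-redox proteins, 9 NAD(P) dehydrogenases and reductases, 5 cytochrome P450s, 5 electron-transport subunits, 3 other oxygenases, 3 FAD-linked oxidases, 2 peroxidases and 4 other annotated proteins.

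The study sequenced RNA from mature stems of the *cep1* mutant and of the wild type (WT). It asked which genes are misregulated during xylem development when *CEP1*, a papain-like cysteine protease gene, is disrupted. The *cep1* plants carried the T-DNA insertion SALK_013036 in the third exon of *CEP1*, and the WT was Columbia-0. By the sample labels the stems were taken 25 days after flowering from untreated plants grown at 20 °C, whereas the methods of the study give stage 4, after flowering had ended, and another temperature. There was 1 library per genotype and no replicate, so no test between genotypes was possible and every interval given here is a 95% interval that covers counting error only. The mutant was 1 insertion line, and its plants germinated and flowered later than the WT, so genotype, plant age at harvest and library cannot be told apart.

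The table lists only genes that were lower in *cep1*, so the direction of every member was set by the table and is not a result. Other genes were not analysed here. The libraries held 22077141 (*cep1*) and 20962056 (WT) reads, totals that the deposited counts, lengths and FPKM imply. *CEP1* itself had 15 reads in *cep1* against 1269 in the WT, a log2 ratio of -6.24 (interval -7.08 to -5.51). All 14 seed storage protein and oleosin genes listed as markers of seeds were in the table, with 152 reads in *cep1* against 93309 in the WT, and 12 of them had no read in *cep1*. None of the 14 was a member. *SAG12*, a senescence marker, had 759 and 9691 reads, and the 5 morning clock genes together had 5182 and 40321. None of the 5 xylem markers was in the table, which does not show that they were unchanged. Among them, *CESA4*, *CESA7* and *CESA8* were reported by the study as up-regulated in *cep1*. The part of seed tissue, senescence or time of day in the values below was not tested, and in bulk RNA fewer cells of a type and less RNA per cell cannot be told apart.

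Oxidoreductases move electrons between a donor and an acceptor such as oxygen, peroxide, NADP or a disulfide. In plant stems, dioxygenases and P450s make and inactivate hormones and defence compounds, peroxidases act on phenolics of the cell wall, and glutaredoxins and thioredoxins reduce disulfides in other proteins. Subunits of the plastid and mitochondrial electron-transport chains carry the same term.

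The members together held 33543 reads in *cep1*, 0.152% of the library, and 113068 in the WT, 0.539%. The median member had 346 reads in *cep1* against 1306.5 in the WT. Each log2 ratio compares the *cep1* read count with the WT count after the scaling of the authors. The median over the members was -1.81, with quartiles of -2.78 and -1.35, beside -1.86, -3.36 and -1.34 over all 733 genes. A log2 ratio of -2 or below, a level at least 4-fold lower in *cep1*, was reached by 20 of the 50 members, or 40%, beside 46.8% of the whole table. At most 3 reads were left in *cep1* for 1 member, or 2%, beside 12.1% of the table. The 95% interval reached above -1, the threshold of the table, for 3 members, *AT3G19000* and *CM1* among them, or 6%, beside 9.82% of the table. Every member had reads in *cep1*, whereas 61 genes of the table had none, and 5 of these 61 carried the oxidoreductase term but were left out by the rule.

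Of the 50 members, 49 are described by name. They spanned a wide range of ratios, from *AT1G52800*, 325-fold lower in *cep1*, to *CM1*, 2.06-fold lower. Of the 9 classes, the NAD(P) dehydrogenases and reductases had the lowest median log2 ratio, -2.78, and the FAD-linked oxidases the highest, -1.33. The classes are small, and the order depends on the measure. For the summed reads of a class the other oxygenases were lowest, at -1.89, and the FAD-linked oxidases again highest, at -1.47. The NAD(P) dehydrogenases and reductases were then at -1.82, beside -1.81 over all genes of the table.

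**Figure D1:**
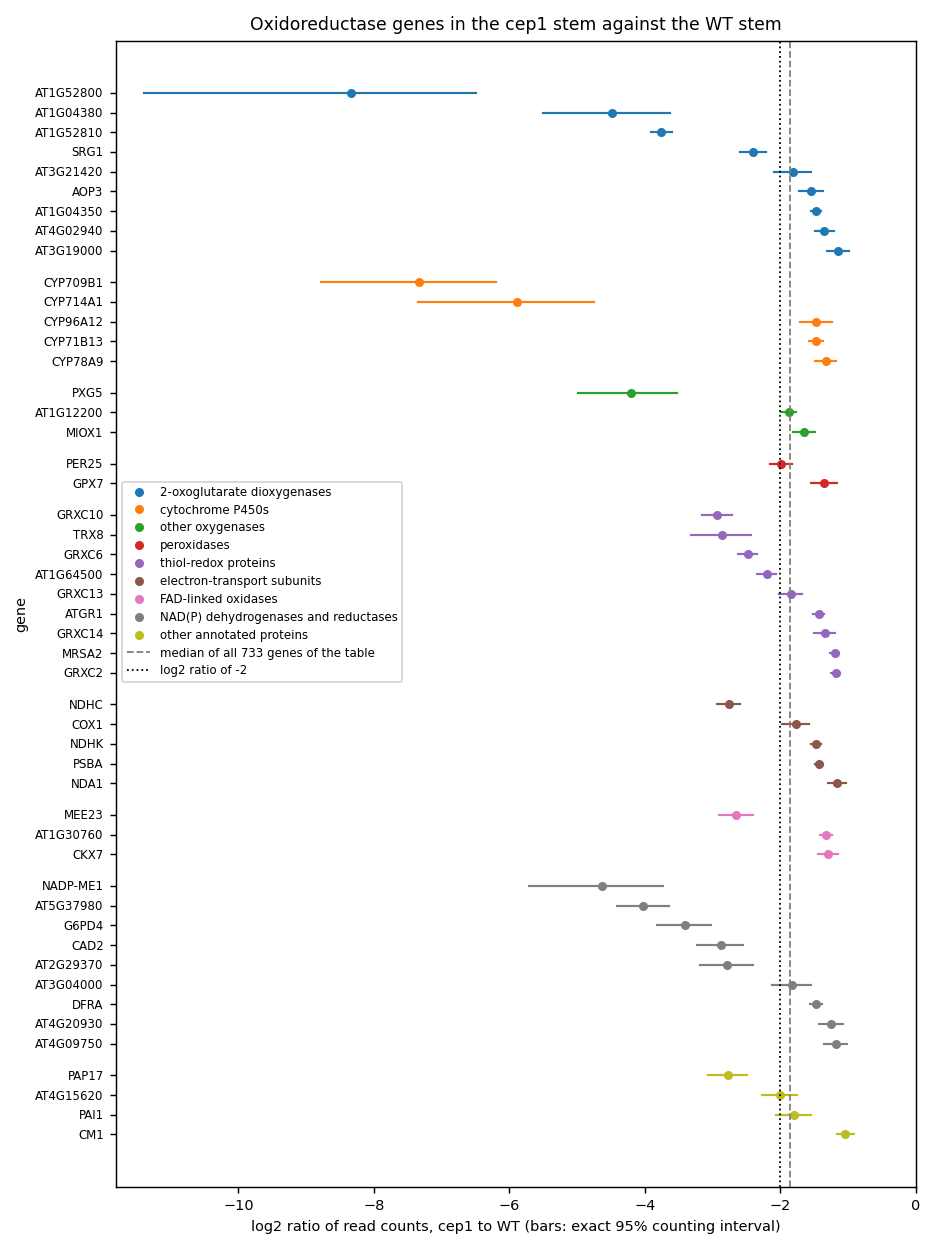
Log2 ratio of read counts, *cep1* to WT, on the x axis for 49 of the 50 oxidoreductase genes on the y axis, grouped and coloured by enzyme class, with 1 library per genotype. Bars are exact 95% counting intervals, the dashed line is the median of all 733 genes (-1.86) and the dotted line a log2 ratio of -2. Wide bars belong to genes with few reads in *cep1*, such as *AT1G52800* at -8.34, and 20 members lie at or below the dotted line.

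Levels between genes were compared in FPKM, the deposited counts scaled to gene length and to the depth of the library. The 49 named members ranged from 6.54 to 425.9 FPKM in the WT and from 0.0959 to 134 in *cep1*, and the medians over all 50 were 41.4 and 12.5. The median over all genes of the table was 49.4 FPKM in the WT and 10.9 in *cep1*. Among named members, 12 reached 100 FPKM in the WT, led by *NDHK* (425.9), *PSBA* (424.9), *GRXC2* (342.8) and *MRSA2* (325.1). In *cep1*, 4 reached 100 FPKM, and they were those same genes. Of the 10 named members with the highest FPKM in each library, 8 were shared. *AT1G52810* was ranked 6 of 49 in the WT with 302.7 FPKM and 17 of 49 in *cep1* with 19.0. Below 1 FPKM there was no named member in the WT and 6 in *cep1*, namely *AT1G52800*, *AT1G04380*, *CYP709B1*, *CYP714A1*, *PXG5* and *NADP-ME1*. No gene of the whole table was below 3.18 FPKM in the WT, and 61 of the 733 had no read in *cep1*. Genes of the table at 100 FPKM or more, or below 1 FPKM in *cep1*, were not counted. Whether the members differ from the table in these counts is therefore not shown.

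**Figure D2:**
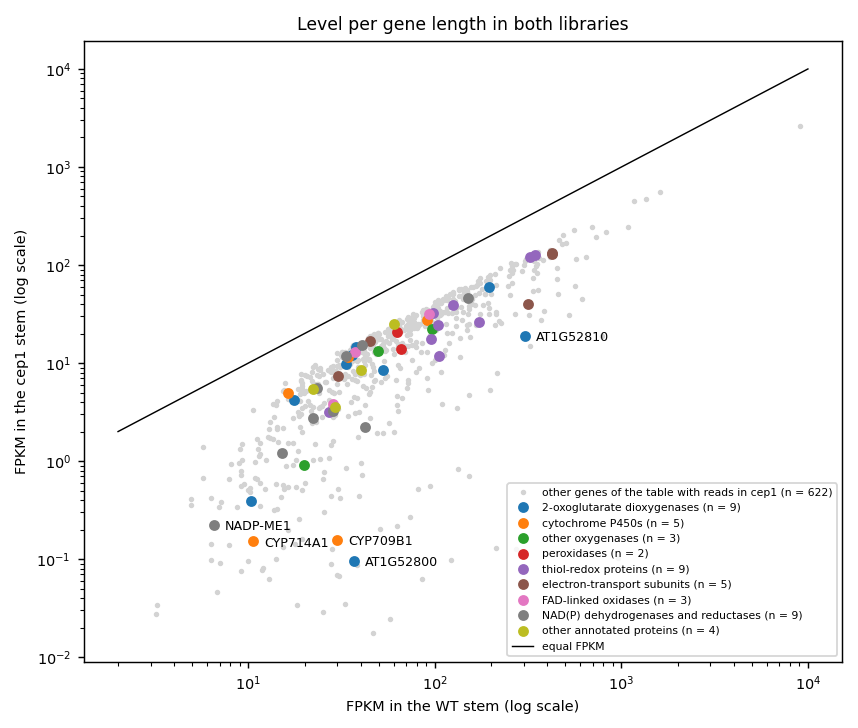
FPKM in the *cep1* stem (y axis, log scale) against FPKM in the WT stem (x axis, log scale), 1 point per gene, with 49 of the 50 oxidoreductase genes coloured by class and the 622 other genes that had reads in *cep1* in grey. The line marks equal FPKM. Every point lies below the line, as the table was restricted to lower genes, and *AT1G52800*, *CYP709B1*, *CYP714A1* and *NADP-ME1* lie far below most members.

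Enzymes of the 2-oxoglutarate dioxygenase family use iron, and most of them 2-oxoglutarate, to oxidise a substrate with oxygen. The 10 members held 9294 reads in *cep1* against 30419 in the WT, with a median log2 ratio of -1.68, and 4 of them were at -2 or below. *SRG1*, a senescence-related gene, had 263 reads in *cep1* against 1551 in the WT. *AT3G21420*, named *LBO1* in RefSeq after its part in strigolactone synthesis and shoot branching, had 139 and 547. *AOP3*, a glucosinolate side-chain gene, had 333 and 1089. *AT4G02940* had 558 and 1595 reads. *AT3G19000* had 431 and 1065, at -1.14 (-1.31 to -0.98).

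A further 4 dioxygenase genes lay in neighbouring pairs, and in both pairs the counting intervals of the log2 ratios did not overlap. *AT1G52800* (chr1:19664044-19665362, plus strand, coordinates as in the deposited table, which names no genome build) had 2 reads in *cep1* against 728 in the WT. *AT1G52810*, which starts 1764 bp downstream on the same strand (chr1:19667127-19668237), had 365 and 5520 reads. Their log2 ratios were -8.34 (-11.39 to -6.49) and -3.75 (-3.91 to -3.60), a difference of 4.59, which was 1.18 on the scale of log2(FPKM + 1). No other gene of the RefSeq annotation lay between them, and their proteins, as translated from RefSeq coding sequences, were identical at 124 of 280 aligned positions. *AT1G52800* kept almost no reads in *cep1*, whereas its neighbour remained detectable at 19.0 FPKM.

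*AT1G04350* (chr1:1165165-1166768, plus strand) and *AT1G04380* (chr1:1176921-1178407, minus strand) share an enzyme name in their gene descriptions. *AT1G04350* had 1898 reads in *cep1* against 5902 in the WT, and *AT1G04380* had 11 and 276. The log2 ratios were -1.47 (-1.55 to -1.40) and -4.49 (-5.50 to -3.62), a difference of 3.01, or of 1.33 on the scale of log2(FPKM + 1). The genes lie 10152 bp apart with 2 RefSeq genes between them, neither of which was in the table. Their translated proteins were 73.1% identical.

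The cytochrome P450s are heme enzymes that insert 1 atom of oxygen into a substrate. The 5 members held 1726 reads in *cep1* against 6658 in the WT, with a median log2 ratio of -1.47, and they fell into a pair with very few reads in *cep1* and 3 genes with a moderate difference. The signature around the cysteine that holds the heme iron is shown because it is what the 5 genes share despite their unequal values. It was found in all 5 members and in 199 of 27562 translated RefSeq proteins, 0.722%. The 30 bases below are from the coding exons of RefSeq TAIR10.1, 5′ to 3′ on the strand of the gene, with the cysteine codon in capitals. The positions are chr2:19292457-19292486 (minus strand) for *CYP709B1*, chr5:8567827-8567856 (minus) for *CYP714A1*, chr4:18369107-18369136 (minus) for *CYP96A12*, chr5:8674351-8674380 (plus) for *CYP71B13* and chr3:22906291-22906320 (minus) for *CYP78A9*.
CYP709B1: ttctccgtcggaccaagagctTGCattggc
CYP714A1: tttggcttagggacaaggttgTGTttagga
CYP96A12: tttaacgccggtccgagaactTGTcctggt
CYP71B13: tttggtagcggaaggagaataTGCcctggt
CYP78A9: ttcgggtccggtcgtcgggttTGCcccggg

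*CYP709B1* had 6 reads in *cep1* against 1081 in the WT, 161-fold lower at a log2 ratio of -7.33 (-8.78 to -6.20). *CYP714A1*, known as *ELA1*, encodes an enzyme that inactivates gibberellins, the growth hormones of stems. It also had 6 reads in *cep1*, with 399 in the WT, at -5.89 (-7.35 to -4.76). The intervals of these overlap, and overlap is not a test of a difference, so no order between them is given here. Their windows above were identical at 15 of 30 bases and their proteins at 33.7% of the aligned positions, the highest identity among the 10 P450 pairs. *CYP71B13* had the most reads of the class, 1029 in *cep1* and 3192 in the WT, at -1.47 (-1.57 to -1.37). *CYP96A12*, of a family that holds an alkane hydroxylase of the stem wax, had 203 and 630 reads. *CYP78A9*, a regulator of fruit and seed size, had 482 and 1356, the highest ratio of the class at -1.33 (-1.48 to -1.18). These 3 had overlapping intervals.

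The 3 other oxygenases held 1232 and 5131 reads in *cep1* and the WT. *PXG5*, a probable peroxygenase of the caleosin family, had 18 reads in *cep1* against 373 in the WT, a log2 ratio of -4.21 (-4.98 to -3.53). *AT1G12200*, a flavin-containing monooxygenase-like gene of a group that oxidises glucosinolates, had the most reads, 824 and 3391, at -1.88 (-1.99 to -1.77). *MIOX1*, whose product turns inositol into glucuronic acid for cell wall sugars, had 390 and 1367, at -1.65 (-1.81 to -1.48). *PXG5* was set apart from the others by intervals that did not overlap.

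Both peroxidases lay above a log2 ratio of -2. *PER25*, a class III peroxidase, a family that includes enzymes of lignin polymerisation, had 373 reads in *cep1* against 1662 in the WT, at -1.99 (-2.16 to -1.83). *GPX7*, a plastid glutathione peroxidase-like gene, had 320 and 917, at -1.36 (-1.54 to -1.17). By product name, 2 of the 67 class III peroxidase genes of RefSeq were in the table, and *PER25* was the only one among the members.

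The thiol-redox proteins were 6 glutaredoxins, 1 thioredoxin, glutathione reductase and a methionine sulfoxide reductase. Glutaredoxins reduce disulfides with glutathione, and the plant CC type has adjacent cysteines at the active site and includes regulators that bind transcription factors. The 9 members held 8583 reads in *cep1* against 27625 in the WT, with a median log2 ratio of -1.85, and 4 of them were at -2 or below. The process term cell redox homeostasis was carried by 8 genes of the table, all of them members. Disulfide oxidoreductase activity, a term that itself meets the rule, was also carried by 8 genes, all members, so this overlap is not independent of the rule. The active-site codons are shown because they divide the glutaredoxins printed below into the CC type and *GRXC2*, and because near-identical sites went with unequal ratios. *AT1G64500*, a glutaredoxin family gene, was not searched for the site, so its type is not given. The search took a cysteine, then a cysteine, proline or glycine, then any residue and a cysteine, a pattern found in 6.9% of the 27562 translated proteins. Capitals mark the 4 active-site codons, and the bases are again from RefSeq TAIR10.1 coding exons on the strand of the gene. The positions are chr5:3845366-3845395 (minus strand) for *GRXC10*, chr4:15941019-15941048 (minus) for *GRXC6*, chr2:19605175-19605204 (plus) for *GRXC13*, chr3:23268831-23268860 (plus) for *GRXC14*, chr5:16148739-16148768 (minus) for *GRXC2* and chr1:26322434-26322463 (plus) for *TRX8*.
GRXC10: ttttcctcaTGTTGCATGTGCcacgtcatg
GRXC6: agatcttcaTGTTGCATGTGCcacgtcatg
GRXC13: aagagctcaTGTTGTCTCTGCtacgccgtt
GRXC14: aaaagttcaTGTTGTCTCTGCtacgccgtg
GRXC2: aagacttatTGTCCATATTGCgtgagagtg
TRX8: gctaaatggTGTGGACCATGTaaaaccctt

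*GRXC10* and *GRXC6*, with 26 of 30 window bases and 70.2% of protein positions identical, had the lowest log2 ratios of the glutaredoxins before intervals are considered. The interval of *GRXC6* narrowly overlapped that of *AT1G64500*, at -2.20 (-2.34 to -2.06). Their difference was not tested, so no order between *GRXC6* and *AT1G64500* is given here. *GRXC10* had 183 reads in *cep1* against 1561 in the WT, at -2.93 (-3.16 to -2.71). *GRXC6* had 446 and 2794, at -2.48 (-2.63 to -2.34). *GRXC13* and *GRXC14* shared 27 of 30 window bases and 92.2% of protein positions. *GRXC13* had 341 and 1375 reads, at -1.85 (-2.02 to -1.68), and *GRXC14* had 442 and 1257, at -1.34 (-1.50 to -1.19). Within each pair the counting intervals did not overlap, with differences of 0.45 and 0.50 on the log2 scale.

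*GRXC2*, the only member outside the CC type among the 5 glutaredoxins printed, had a ratio among the highest of the class. It had 2339 reads in *cep1* against 5949 in the WT, at -1.18 (-1.25 to -1.11). *MRSA2*, which repairs oxidised methionine, had the most reads of the class, 2641 and 6781, at -1.20 (-1.26 to -1.13), which overlaps the interval of *GRXC2*. *ATGR1* encodes the cytosolic glutathione reductase, which regenerates the glutathione that glutaredoxins use, and had 1655 and 5006 reads. *AT1G64500*, a glutaredoxin family gene, had 487 and 2503. *TRX8*, a thioredoxin of the h type, had 49 and 399, fewer than any other thiol-redox member, at -2.86 (-3.32 to -2.43), an interval that holds that of *GRXC10*. In FPKM, *GRXC2* and *MRSA2* stood above the rest of the class in both libraries.

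**Figure D3:**
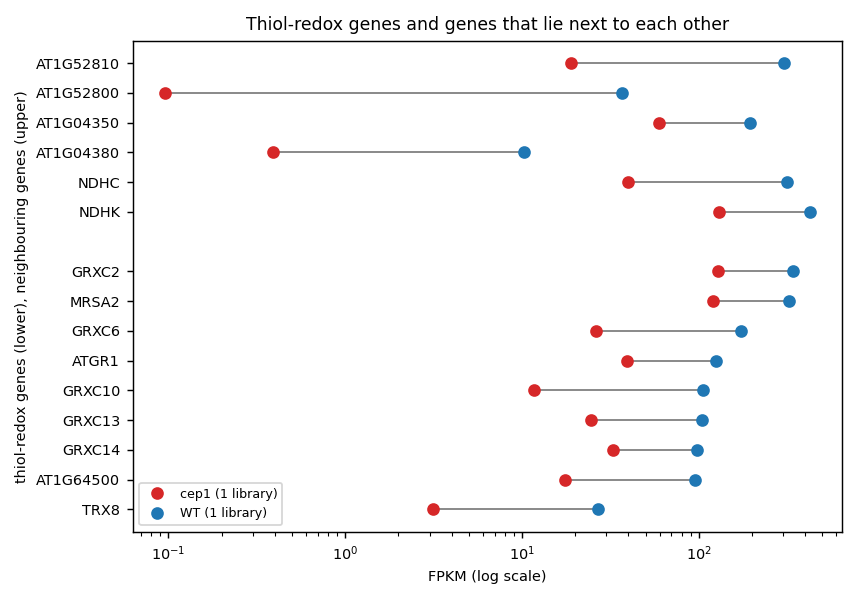
FPKM on the x axis (log scale) of the 9 thiol-redox genes (lower block) and of the 3 pairs of neighbouring members (upper block) on the y axis, with a red point for the *cep1* library and a blue point for the WT library, 1 library each, joined by a line. The line of *AT1G52800* (0.0959 to 36.8 FPKM) is much longer than that of its neighbour *AT1G52810* (19.0 to 302.7), and *GRXC2* has one of the shortest lines.

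Of the 5 electron-transport subunits, 4 are encoded in organelles. *PSBA* encodes the D1 protein of photosystem II and had 3131 reads in *cep1* against 9460 in the WT, the most of the class, at -1.43 (-1.49 to -1.37). *NDHC* and *NDHK* encode subunits of the plastid NADH dehydrogenase-like complex, which works in cyclic electron flow. *NDHC* (plastid 50001-50363) had 318 and 2413 reads, at -2.76 (-2.93 to -2.59), and *NDHK* (plastid 49257-49934) had 1950 and 6053, at -1.47 (-1.54 to -1.40). They lie 66 bp apart on the same strand, and their log2 ratios differed by 1.29. Of the 12 plastid gene entries for this complex, these 2 were in the table. *COX1*, the mitochondrial gene for a core subunit of cytochrome c oxidase, had 261 and 998 reads. *NDA1*, a nuclear gene for an alternative NADH dehydrogenase of mitochondria, had 667 and 1674, the highest ratio of the class at -1.16 (-1.30 to -1.03). The 13 plastid genes of the table had a median log2 ratio of -1.78, and the 4 organelle-encoded members one of -1.62.

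The FAD-linked oxidases were a pair from the berberine bridge enzyme-like family, in which some enzymes oxidise the monolignols that form lignin, and a cytokinin dehydrogenase. *MEE23* had 151 reads in *cep1* against 1060 in the WT, at -2.65 (-2.90 to -2.40). *AT1G30760*, whose translated protein was 79.7% identical, had 1307 and 3670, at -1.33 (-1.42 to -1.23). The difference of 1.32 was again larger than the counting intervals. *CKX7*, which breaks down cytokinins, had 528 and 1448 reads, at -1.29 (-1.44 to -1.15), and was the only one of the 7 *CKX* genes in the table.

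The 9 NAD(P) dehydrogenases and reductases held 2525 reads in *cep1* against 9965 in the WT, and 5 of them were at a log2 ratio of -2 or below. *NADP-ME1*, a malic enzyme gene, had 10 and 278 reads, 24.8-fold lower at -4.63 (-5.71 to -3.73). *AT5G37980*, a zinc-binding dehydrogenase gene, had 61 and 1108, at -4.02 (-4.42 to -3.65). *G6PD4*, annotated as a plastid glucose-6-phosphate dehydrogenase of the pentose phosphate pathway, had 59 and 702, at -3.41 (-3.82 to -3.02). The interval of *NADP-ME1* overlapped those of the other genes just named. Their differences were not tested, so no lowest member of the class is named here. On the scale of log2(FPKM + 1), *NADP-ME1* was at -2.62 and *AT5G37980* at -3.75. *CAD2*, annotated as a cinnamyl alcohol dehydrogenase, the enzyme type that makes monolignols, had 82 and 677, at -2.88 (-3.23 to -2.55). *AT2G29370*, a tropinone reductase homolog, had 64 and 493 reads. These 5 genes had at most 82 reads in *cep1*.

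The 4 remaining dehydrogenases had at least 130 reads in *cep1* and log2 ratios above -2. *DFRA* encodes dihydroflavonol reductase of the anthocyanin pathway and had the most reads of the class, 1378 and 4263, at -1.47 (-1.55 to -1.38). Beside it, 5 of the 12 other flavonoid genes listed were in the table, namely *CHS* (-1.19), *CHI* (-2.05), *GSTF12* (-1.51), *MYB90* (-2.88) and *TT8* (-2.61), all given as log2 ratios. This list and that of the *CKX* genes were written after the values of their members had been seen. *AT4G20930*, a probable 3-hydroxyisobutyrate dehydrogenase of valine breakdown, had 351 and 933 reads, *AT3G04000* had 130 and 518, and *AT4G09750* had 390 and 993. *AT4G09750* was at -1.18 (-1.36 to -1.01) and *AT4G20930* at -1.25 (-1.43 to -1.07), intervals that overlap.

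The last 4 members carry an oxidoreductase term although their descriptions name another activity. *PAP17*, a purple acid phosphatase known from phosphate starvation that also shows peroxidase activity, had 114 reads in *cep1* against 875 in the WT, at -2.78 (-3.07 to -2.49). *CM1*, a chorismate mutase of phenylalanine and tyrosine synthesis, had the most reads, 750 and 1729, at -1.04 (-1.17 to -0.92). Both were listed under activity on peroxide as acceptor. *AT4G15620*, a CASP-like membrane protein gene, had 149 and 671 reads. *PAI1*, of tryptophan synthesis, had 164 and 640, at -1.80 (-2.06 to -1.55), and was included only through the term for intramolecular oxidoreductases, which are isomerases.

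The members carried further annotations that the rule did not name. Terms such as iron or heme binding describe the same enzymes as the oxidoreductase term, so their shares are not independent of the rule. Metal ion binding was a term of 23 members and of 102 genes of the table (13.9%), iron ion binding of 11 out of 18 genes of the table and heme binding of 7 out of 10. For cell components, 15 members and 254 genes of the table had no term. The cytoplasm was a term of 25 members and of 230 genes of the table (31.4%), and the chloroplast of 8 members and 64 genes (8.73%). Response to oxidative stress was a term of 6 members and of 24 genes of the table, so most genes with that term were not members.

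By RefSeq product names, the table held 8 of the 107 2-oxoglutarate dioxygenase genes of the genome, all 8 of them members, 8 of 247 cytochrome P450 genes, 3 of 22 glutaredoxin genes and 2 of 27 berberine bridge enzyme-like genes. Over all 27444 protein-coding genes with a locus tag, 690 were in the table. Product names missed some members, as 3 of the 6 glutaredoxins have other names there, so the shares are descriptions of the names.

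The counts of some members may include reads of other genes. *PAI1* was 99.4% identical over its coding sequence to *AT5G05590* and *CAD2* 98.5% to *AT2G21890*, neither of which was in the table, so their values are uncertain. The next closest were *AT5G37980* (92.4%), *CYP71B13* (88.0%), *PXG5* (86.9%) and *AT4G15620* (86.2%). In RefSeq, 10 of the 46 members with a locus tag overlapped a gene on the opposite strand: *AT3G19000*, *GPX7*, *GRXC13*, *ATGR1*, *MEE23*, *G6PD4*, *CAD2*, *AT3G04000*, *AT4G09750* and *PAP17*. These overlaps were partial, from 57 bp of the genome for *AT4G09750* to 804 bp for *AT3G19000*. The sources used here do not say that the counting kept the strand. Reads from the overlapping stretches therefore cannot be told apart from reads of the partner gene, and how the counting treated them was not tested.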

How the data were processed

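RNA of mature stems was sequenced from 1 *cep1* and 1 WT library, with no replicates. Per the methods, libraries were made with a NEBNext Ultra kit, which is not said to keep the strand, and reads were mapped with TopHat. The submitters' processing notes also name Bowtie2 2.2.3, TopHat2 2.0.12 and HTSeq 0.6.1, and the genome build is not given in the sources used here. The deposited values are raw read counts, FPKM (counts scaled by the authors to length and depth) and normalized counts, a signal equal to the raw counts divided by 20.3 (*cep1*) or 22.8 (WT). FPKM equalled count over length and total to within 1% for 41 of the 50 members in each library and was up to 1.14 times larger for the others. The table also holds the authors' log2 ratios, p-values and adjusted p-values of the comparison, which were not used.

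Each log2 ratio (*cep1* to WT) used the raw counts divided by the authors' factors, with exact (Clopper-Pearson) 95% intervals. A count of 0 allows up to 3 reads, a share of up to 1.36e-05% in *cep1* and 1.43e-05% in the WT. In the medians, genes of the table without reads in *cep1* stood at 3 reads. No replicate check of any difference was possible and p-values were not computed. Members were described by counts and medians, most of them beside those of all 733 genes. The members and lists were chosen with earlier results of these data known. Every member but 1, which is not reported here by name and enters only counts, sums and medians, was named with its read counts, and intervals were printed for the lowest, the highest and the most-read member of each class and for neighbouring or near-identical members. Members within 20000 bp of each other were taken as neighbours. Of the 50 members, 46 had a RefSeq locus tag in TAIR10.1, all overlapping the gene of that tag and 2 with the same start and end. Proteins were translated from coding sequences and aligned with Biopython 1.88, and related genes were searched with BLAST 2.17.0. The ratios, computed with scipy 1.17.1, pandas 2.3.3 and numpy 2.4.6 under Python 3.11.15, were tested on simulated data, and figures were drawn with matplotlib 3.10.9. Alternatives were other scalings, pseudocounts, a count filter and other member rules.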

Additional observations from a re-analysis of the deposited data

How the results depend on the processing

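With the counts scaled to library totals every log2 ratio was lower by 0.24. Then 27 of the 50 members were at -2 or below, with a median of -2.05, beside 394 of the 733 genes and -2.10 over the table. The share of the members was then close to that of the table, whereas it was 40% beside 46.8% under the scaling of the authors. On the scale of log2(FPKM + 1) there were 23 members and a median of -1.87, beside 367 genes of the table. With 0.1 added to FPKM there were 26 members and a median of -2.02. Among the 44 members with at least 20 reads in both libraries there were 14, with a median of -1.60. For the addition of 0.1 and for this filter the count over the whole table was not computed, so these counts cannot be set beside it. All members had at least 276 reads in the WT, so this filter removed only the 6 members with the fewest reads in *cep1*, and a smaller count and a higher median followed from its construction. Without the exclusions of the rule, 31 of 68 genes were at -2 or below, with a median of -1.86. Matching the term as a whole left 49 members, and leaving out organelle genes left 46, with 20 and 19 at -2 or below and medians of -1.81 and -1.82. Members with at most 10 reads in *cep1* numbered 4 of 50, in place of 1 with at most 3. Over the whole table these counts were 112 and 89 of 733 genes. For single members, library totals put 33 of the 50 log2 ratios outside their counting intervals, and log2(FPKM + 1) put 32 there. On the latter scale *NADP-ME1* went from -4.63 to -2.62 and *AT1G52800* from -8.34 to -5.11. No paired analysis was possible because each genotype had 1 library. Depth limits the lowest members: the interval of *AT1G52800*, with 2 reads in *cep1*, spans -11.39 to -6.49. The intervals leave out variation between plants, which 1 library per genotype cannot measure.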
